A study of Mus musculus with 18 samples.

Results

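Mouse inner cell mass (ICM) outgrowths collected on day 3 of culture were compared with outgrowths collected on day 2, across all mature microRNAs (miRNAs) of a small-RNA sequencing table. The comparison comprised 4 of the 18 libraries of the series, 2 of day 3 and 2 of day 2, and was chosen by the time label alone. The table listed 1390 miRNAs. Of these, 355 reached 27.2 normalized counts in at least 2 of the 4 libraries and were tested, 263 of them in all 4. A further 78 reached that level in 1 library, 114 were above 0 in some library but never reached it, and 843 were listed at 0 throughout. Both groups came from NMRI blastocysts, an outbred mouse strain, whose ICMs had been freed of trophectoderm by immunosurgery and seeded on gelatin. Both were grown in N2B27 medium with leukemia inhibitory factor and R2i, the pair of inhibitors PD0325901 (1 µM, against MEK) and SB431542 (10 µM, against activin and TGF-beta type I receptors), and by the labels they differed in days of culture only. The other 14 libraries were fresh ICM, outgrowths of days 0.5, 1 and 5, and embryonic stem cells (ESCs) with 3 passage codes, 2 libraries each. No label says how many embryos entered a library or whether replicates were separate cultures, so p-values measure only the spread between these libraries, which may be technical.

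The ICM is the part of the blastocyst that forms the embryo proper, and its cells can be captured in culture as ESCs. A miRNA is a short RNA cut from a hairpin precursor whose 5p or 3p arm is loaded into Argonaute and lowers the output of mRNAs that pair with its seed, bases 2 to 8. In mouse pluripotent cells the miR-290-295 cluster is abundant and supports rapid cell division, the miR-302/miR-367 cluster marks the later, primed epiblast, and let-7 miRNAs mark differentiation.

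The sequences below are the mature miRNAs on which the results turn, 5′ to 3′, from RefSeq on GRCm38.p6, with the seed in capitals. The first set are miRNAs that were higher on day 3, and miR-26b-5p, which shares the seed of miR-26a-5p and was not called.
miR-100-5p: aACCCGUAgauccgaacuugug
miR-5108: gUAGAGCAcuggaugguuu
miR-141-3p: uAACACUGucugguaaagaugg
miR-376b-3p: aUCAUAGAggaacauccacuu
miR-26a-5p: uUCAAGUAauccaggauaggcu
miR-26b-5p: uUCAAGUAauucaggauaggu
miR-148a-3p: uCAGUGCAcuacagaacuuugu
miR-16-5p: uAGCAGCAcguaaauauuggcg
miR-322-5p: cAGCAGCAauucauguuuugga
miR-410-3p: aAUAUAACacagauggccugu
The second set are miRNAs that were lower on day 3, with both arms of the miR-423 and miR-877 hairpins.
miR-423-5p: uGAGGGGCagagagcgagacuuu
miR-423-3p: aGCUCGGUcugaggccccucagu
miR-877-5p: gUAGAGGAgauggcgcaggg
miR-877-3p: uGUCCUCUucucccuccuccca
miR-672-5p: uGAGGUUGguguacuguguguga
miR-342-5p: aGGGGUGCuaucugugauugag
miR-1249-3p: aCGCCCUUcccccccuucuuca
miR-293-3p: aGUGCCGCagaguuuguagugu
miR-465c-3p: gAUCAGGGccuuucuaaguaga
The third set share the seed AUUGCAC, and only miR-363-3p among them was called.
miR-363-3p: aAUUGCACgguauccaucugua
miR-92a-3p: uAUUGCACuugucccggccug
miR-92b-3p: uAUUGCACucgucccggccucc
miR-25-3p: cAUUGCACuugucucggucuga
RefSeq had a mature sequence for 1166 of the 1390 listed miRNAs and for 288 of the 355 tested.

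Values are the normalized counts of the deposited table, which the authors had rounded. Their spacing gave 201031 and 370150 estimated reads in day 3 replicates 1 and 2, against 234400 and 235962 reads in the day 2 libraries. One read was worth 4.81 and 1.81 normalized counts on day 3, and 3.30 and 3.49 on day 2, and the lowest listed value stood for 5 reads. With 5 reads the Poisson error is 44.7% of the value, so values were raised to 27.2, which is 5 reads in the shallowest library of the series, before log2. As outgrowths are mixtures, fewer cells of a type and less RNA per cell cannot be told apart. The miR-290-295 miRNAs held 6.45% and 9.73% of the counts on day 3, against 10.6% and 8.89% on day 2. Of the markers of other tissues, miR-145a, miR-214, miR-199a-5p, miR-223, miR-451a, miR-124, miR-206, miR-133a and miR-122 were listed at 0 in all 4 libraries. Others were above 0 in all 4, such as miR-143-3p, with 250 and 191 normalized counts on day 3, against 165 and 143 on day 2, and miR-486-5p, with 779 and 339 on day 3, against 410 and 572 on day 2. So were miR-10b-5p (21292 and 9145 on day 3, 13130 and 18305 on day 2) and miR-21a-5p (880 and 1062, against 1027 and 1028). The same holds for miR-142-5p (707 and 401, against 334 and 293) and miR-150-5p (467 and 722, against 667 and 554). miR-199a-3p, the other arm of miR-199a, had 24 and 256 on day 3, against 532 and 206 on day 2. The neural marker miR-9-5p was listed at 24 and 47 on day 3 and at 0 in both day 2 libraries.

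The step of day 2 to day 3 moved miRNAs in both directions, none of them among the 10 most abundant. miR-423-5p, miR-423-3p, both arms of miR-877 and miR-672-5p fell, and miR-5108, miR-375-3p, miR-302a-3p, miR-363-3p, miR-3960 and miR-26a-5p rose. miR-100-5p appeared in both day 3 libraries and was listed at 0 in both day 2 libraries. In all, 28 of 355 miRNAs (7.89%) were called higher and 32 (9.01%) lower by limma at an adjusted p under 0.05, and 99 had an unadjusted p under 0.05. The change exceeded 2-fold in 21 of the higher and 17 of the lower ones. The median log2 change over the 355 was 0.02. For 97 miRNAs (27.3%) both day 3 libraries lay above both day 2 libraries, and for 98 (27.6%) both lay below, so non-overlap alone was common. All 60 called miRNAs were among these.

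The spread between replicates was estimated over all 9 groups, so the calls also rest on libraries outside the comparison. With the 4 libraries alone no miRNA was called, although 64 had an unadjusted p under 0.05, and with the 10 libraries of days 0 to 3 the calls were 5 higher and 6 lower. Leaving out day 2 replicate 1 gave 18 higher and 17 lower calls, and leaving out day 2 replicate 2 gave 18 and 22. Of the 60 calls, 11 higher and 13 lower ones were made again whichever of the 4 libraries was left out. Passing the filter also shaped the calls: 14 miRNAs passed through day 3 alone, 7 of them called higher, and 14 passed through day 2 alone, 6 of them called lower. Such miRNAs had to differ in that direction. Some calls made again without each library were of this kind. These were miR-100-5p, miR-27a-3p, miR-302d-5p, miR-431-3p and miR-653-5p through day 3 alone, and miR-1306-5p and miR-6923-3p through day 2 alone. The filter used all 4 libraries in those fits too. The lower calls made again also count miR-465a-3p, miR-465b-3p and miR-465c-3p, which are 1 measurement. Of the 263 miRNAs at the floor in all 4 libraries, 20 were called higher and 21 lower.

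**Figure D1:**
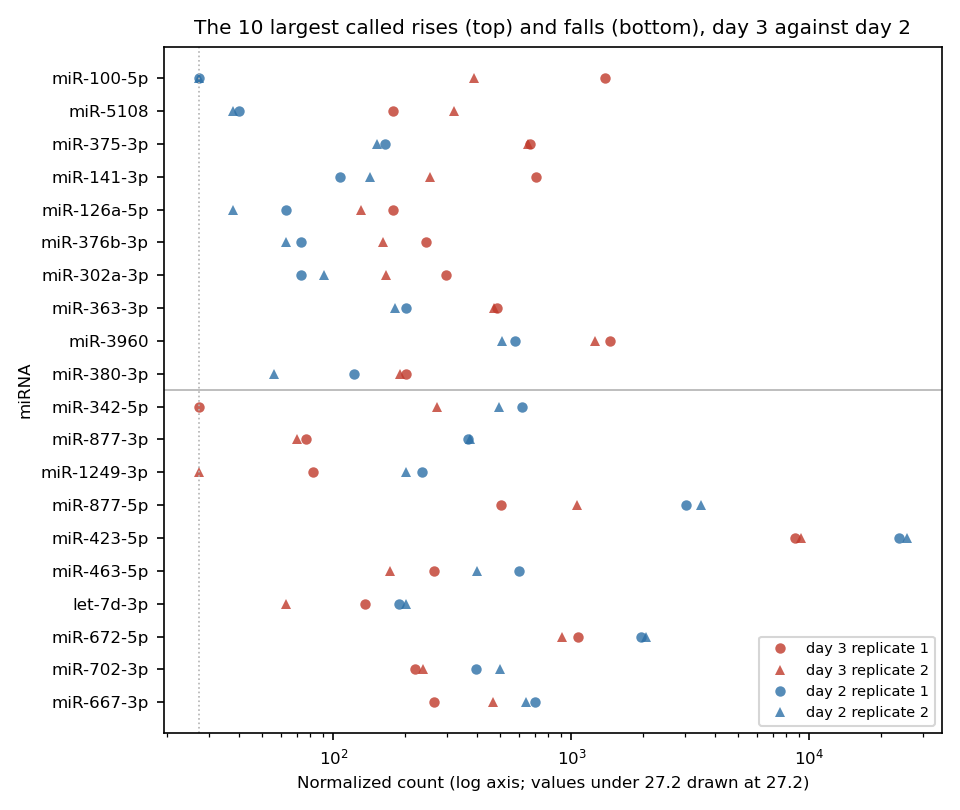
Normalized counts on a log axis of the 10 largest called rises (upper rows) and the 10 largest called falls (lower rows) among miRNAs with a mean of at least 100, with each of the 4 libraries as a point (red day 3, blue day 2) and values under 27.2 drawn at 27.2. The red and blue points do not overlap in any row, and the red points of several miRNAs lie far apart from each other, those of miR-342-5p the widest.

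Among the rises, miR-100-5p had 1381 and 390 normalized counts on day 3, about 287 and 216 reads, and was listed at 0 in both day 2 libraries. It is a miRNA of the miR-99/miR-100 family, transcribed from an intron of 3110039I08Rik at chr9:41531437-41531458 on the plus strand. It passed the filter through day 3 alone, so the direction of its call was fixed. With day 2 raised to the floor the fitted log2 difference was 4.75 (adjusted p = 2.1e-05), a size that depends on the floor. Outside day 3 it was listed at 35 in 1 library of day 0.5, at 11 and 23 on day 5, and at 15 or less in the ESC libraries, so the day 3 libraries stood apart from every other group. miR-99b-5p, of the same family, had 8010 and 2591 normalized counts on day 3, against 3875 and 3813 on day 2, and these overlap (adjusted p = 0.80). miR-125a-5p, the most abundant member of the miR-125/miR-99/miR-100 list and of another seed, had 10276 and 4814 normalized counts on day 3, against 6900 and 7950 on day 2, and these overlap. Of the 5 listed miRNAs tested in that list 1 was called higher, against 7.89% of all tested miRNAs, and none lower. The median log2 change of the list was −0.07.

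miR-5108 had 178 and 320 normalized counts on day 3, against 40 and 38 on day 2. Both day 3 libraries were well above either day 2 library, and the log2 change was 2.61 (SE 0.34, adjusted p = 0.00037). Its course was not a steady rise, since it had 479 and 496 in fresh ICM, 145 and 266 on day 1, and 14 and 19 on day 5. Day 2 and day 3 therefore sit on a path that was high at the start, low on day 2, higher on day 3 and low again. The entry maps within an intron of H2afy2 on the opposite strand.

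miR-375-3p, known from pancreatic islets and other endocrine and endodermal cells, had 669 and 654 normalized counts on day 3, against 165 and 153 on day 2. The day 3 libraries were close to each other and well above day 2, with a log2 change of 2.06 (SE 0.48, adjusted p = 0.012). It stayed at 721 and 639 on day 5. Without day 2 replicate 1 the adjusted p was 0.052, and without day 2 replicate 2 it was 0.064. The other endoderm and liver markers were not called: miR-192-5p had 1102 and 511 on day 3, against 575 and 620 on day 2, and miR-122 was listed at 0. All 4 tested miRNAs of that list had a positive log2 change, with a median of 0.82. Of these 1 was called, against 7.89% called higher among all tested miRNAs.

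miR-141-3p, a member of the miR-200 family that restrains the Zeb repressors in epithelial cells, had 712 and 255 normalized counts on day 3, against 106 and 143 on day 2. Both day 3 libraries were higher than day 2, replicate 2 being near the day 1 values of 242 and 258, and the log2 change was 1.79 (SE 0.46, adjusted p = 0.018). Without day 3 replicate 1 the log2 change was 1.05 (adjusted p = 0.16), and without day 2 replicate 1 it was 1.57 (adjusted p = 0.11). miR-200b-3p, the most abundant of the family, had 1126 and 1091 on day 3, against 1202 and 1359 on day 2 (log2 change −0.21, SE 0.15, adjusted p = 0.39). In the family 1 of 6 tested miRNAs was called higher, against 7.89% of all tested miRNAs, with a family median log2 change of 0.02.

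miR-302a-3p belongs to the cluster that marks primed epiblast in the mouse. It had 298 and 166 normalized counts on day 3, against 73 and 91 on day 2, with a log2 change of 1.45 (SE 0.29, adjusted p = 0.0056). The groups did not overlap, and on day 5 it reached 566 and 633. Its cluster mate miR-302d-5p was also called, with 58 and 61 on day 3, against 26 and 21 on day 2 (log2 change 1.13). It passed the filter through day 3 alone, so the direction of its call was fixed. miR-302d-3p, the most abundant member, had 202 and 303 on day 3, against 215 and 115 on day 2, and here the groups overlap. Of the 5 tested members of the miR-302/miR-367 list, miR-302d-5p included, 2 were called higher and none lower, with a median log2 change of 0.83. Over all tested miRNAs 7.89% were called higher. The sum of the list was 770 and 865 normalized counts on day 3, against 480 and 408 on day 2, far below the miR-290-295 sum of 62349 and 65040 on day 3, against 81863 and 73133 on day 2. On log2(value + 1) the call of miR-302a-3p was lost (adjusted p = 0.58).

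miR-363-3p, of the X-linked miR-106a-363 cluster, had 486 and 471 normalized counts on day 3, against 201 and 181 on day 2. These values were close within each day, with a log2 change of 1.33 (SE 0.21, adjusted p = 0.0016). It was at 32 or less in every library of days 0 to 1 and at 1026 and 1144 on day 5. On log2(value + 1) its call too was lost (adjusted p = 0.40). miR-106a-5p of the same cluster was called with a log2 change of 0.78. Its call was lost whichever library was left out, with adjusted p of 0.058 to 0.11. The much more abundant miR-92a-3p has the same seed as miR-363-3p. It had 164742 and 130607 on day 3, against 150861 and 153458 on day 2 (log2 change −0.05, SE 0.14, adjusted p = 0.83), and the groups overlap. Across the miR-17-92 cluster, which promotes proliferation, and its relatives 2 of 21 tested miRNAs were called higher and none lower. This is near the 7.89% called higher over all tested miRNAs, and the median log2 change was 0.06.

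miR-3960 had 1448 and 1251 normalized counts on day 3, against 578 and 512 on day 2, a log2 change of 1.31 (SE 0.23, adjusted p = 0.0042). Replicates of each day were near each other. The course was uneven, with 326 and 291 in fresh ICM and 1492 and 2016 on day 0.5. miR-126a-5p, from the Egfl7 gene of endothelial cells, had 178 and 130 on day 3, against 63 and 38 on day 2 (log2 change 1.64, SE 0.41, adjusted p = 0.017). Its call was lost without day 3 replicate 1 (adjusted p = 0.10) and without day 2 replicate 2 (adjusted p = 0.14). The usually dominant miR-126a-3p was listed at 24 and 38 on day 3 and at 0 in both day 2 libraries, too low to be tested.

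miR-26a-5p, a repressor of the histone methyltransferase Ezh2, had 19046 and 12240 normalized counts on day 3, against 7082 and 7532 on day 2. The groups did not overlap, with a log2 change of 1.06 and a 2.09-fold rise (SE 0.21, adjusted p = 0.0056). miR-148a-3p, which targets DNA methyltransferases, had 9987 and 5557 on day 3, against 3501 and 3851 on day 2 (log2 change 1.02, adjusted p = 0.041). Without day 3 replicate 1 its log2 change was 0.60 (adjusted p = 0.31), and without day 2 replicates 1 or 2 the adjusted p was 0.16 and 0.12. miR-16-5p, a brake on the G1 phase of the cell cycle, had 11546 and 8011 on day 3, against 6091 and 6113 on day 2 (log2 change 0.66, adjusted p = 0.027). Its call was lost without day 3 replicate 1 (adjusted p = 0.19) and without day 2 replicates 1 (adjusted p = 0.098) or 2 (adjusted p = 0.11).

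miRNAs of the imprinted Dlk1-Dio3 domain on chromosome 12, expressed from the maternal allele, made up 7 of the 28 higher calls and 2 of the 32 lower ones, among 49 tested. Over all tested miRNAs the shares called were 7.89% higher and 9.01% lower. The median log2 change of the list was 0.26, against 0.02 over all tested miRNAs. Of its 49 changes 34 were positive, against 181 of 355 over all tested miRNAs. Of the called ones, miR-431-3p and miR-377-3p passed the filter through day 3 alone and miR-665-5p through day 2 alone, so their directions were fixed and these counts and the median depend in part on the filter. The list held 9.72% and 10.8% of the counts on day 3, against 7.70% and 8.37% on day 2. Within it miR-541-5p alone held 4.70% and 3.70% on day 3, against 2.61% and 3.55% on day 2. The difference in the list's share therefore rests in part on this miRNA. miR-376b-3p had 245 and 162 normalized counts on day 3, against 73 and 63 on day 2 (log2 change 1.55, SE 0.36, adjusted p = 0.011). Its call was lost without day 3 replicate 1 (adjusted p = 0.075) and without day 2 replicate 2 (adjusted p = 0.064). miR-380-3p had 202 and 190 on day 3, against 122 and 56 on day 2 (log2 change 1.24, SE 0.31, adjusted p = 0.015). Its change was 0.68 without day 2 replicate 2 (adjusted p = 0.12), and without day 3 replicate 1 the adjusted p was 0.064. miR-410-3p was better measured, with 3584 and 2777 on day 3, against 1873 and 1680 on day 2 (log2 change 0.83, SE 0.16, adjusted p = 0.0049). Its call held without each library. The other higher calls of the domain were miR-411-5p, miR-136-5p, miR-431-3p and miR-377-3p, and the lower ones were miR-667-3p and miR-665-5p. The call of miR-431-3p held without each library. The call of miR-411-5p was lost without day 3 replicate 1 (adjusted p = 0.24) and without day 2 replicates 1 (adjusted p = 0.17) or 2 (adjusted p = 0.13). The call of miR-377-3p was lost without day 3 replicate 2 (adjusted p = 0.22) and without day 2 replicates 1 (adjusted p = 0.13) or 2 (adjusted p = 0.14). The log2 change of miR-136-5p was 1.25, but 0.83 without day 3 replicate 2 (adjusted p = 0.21) and 0.87 without day 2 replicate 2 (adjusted p = 0.28). The call of miR-665-5p was lost whichever library was left out, with adjusted p of 0.071 to 0.10. miR-541-5p, the most abundant member, had 45413 and 24756 on day 3, against 20212 and 29179 on day 2, and these overlap.

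**Figure D2:**
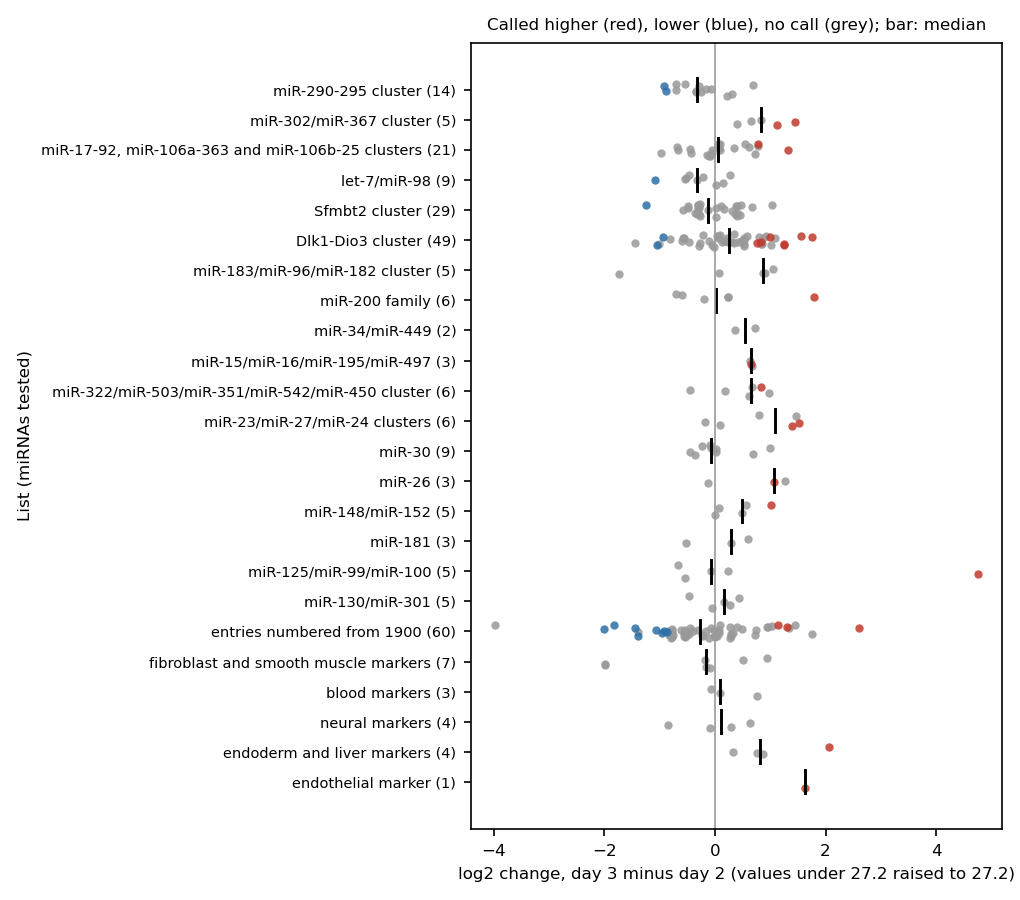
The log2 change, day 3 minus day 2, of every tested miRNA in each list (1 point each), with calls in red (higher) and blue (lower), the rest in grey, the list median as a bar and the number tested in brackets. The bars of the miR-290-295 and let-7 lists sit at −0.31 and −0.33 and that of the Dlk1-Dio3 list at 0.26, and those of the miR-302/miR-367 and miR-23/miR-27/miR-24 lists include miRNAs that passed the filter through day 3 alone.

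Among the falls, miR-423-5p carried the most reads. It had 8683 and 9196 normalized counts on day 3, against 23726 and 25607 on day 2. The replicates of each day were within a narrow range and far from the other day, a 2.76-fold fall (log2 change −1.46, SE 0.15, adjusted p = 7.0e-05). In the 8 libraries of days 0 to 2 it lay between 22911 and 27731, and on day 5 at 3084 and 2604, so it was lower only after day 2. The other arm, miR-423-3p, had 3767 and 4588 on day 3, against 7710 and 7967 on day 2 (log2 change −0.91, SE 0.17, adjusted p = 0.0047). Both arms come from a hairpin in an intron of Nsrp1, miR-423-5p at chr11:77078122-77078144 and miR-423-3p at chr11:77078086-77078108 on the minus strand. Both calls held without each of the 4 libraries.

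miR-877 is a mirtron, a hairpin formed by a whole short intron, here of Abcf1, which is processed by splicing in place of Drosha. miR-877-5p had 505 and 1056 normalized counts on day 3, against 3029 and 3489 on day 2 (log2 change −2.15, SE 0.41, adjusted p = 0.0049). The day 3 replicates differed by about the factor of 2 that separates 505 from 1056, and both were far below day 2. miR-877-3p had 77 and 70 on day 3, against 367 and 376 on day 2 (log2 change −2.34, SE 0.27, adjusted p = 0.00016). The arms had different histories before: miR-877-3p was highest in fresh ICM, at 1213 and 713, while miR-877-5p was at 1544 and 955 there. Of the 68 hairpins with both arms tested, 3 had both arms lower (miR-423, miR-877 and miR-465c), none had both higher, and 13 had a call in 1 arm.

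miR-672-5p, from an intron of the X-linked gene Nexmif, had 1068 and 912 normalized counts on day 3, against 1962 and 2060 on day 2. The groups were well separated for a 2.04-fold fall (log2 change −1.03, SE 0.13, adjusted p = 0.00037). It lay between 2773 and 4106 in the 6 earlier libraries and at 1305 and 1163 on day 5. The calls of miR-423-5p, miR-672-5p, both miR-877 arms, miR-100-5p, miR-5108 and miR-3960 were the ones among the 20 largest changes that also held with the 10 libraries of days 0 to 3 alone.

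miR-342-5p, from an intron of Evl, was listed at 0 in day 3 replicate 1 and had 273 in day 3 replicate 2, against 621 and 498 normalized counts on day 2. Both day 3 values were lower, with a log2 change of −2.69 (SE 0.78, adjusted p = 0.037). Without day 3 replicate 1 it was −1.03 (adjusted p = 0.24), and without day 2 replicates 1 or 2 the adjusted p was 0.14 and 0.11. The opposite arm, miR-342-3p, had 649 and 289 on day 3, against 284 and 216 on day 2. miR-1249-3p had 82 and 14 on day 3, against 235 and 202 on day 2 (log2 change −2.21, SE 0.49, adjusted p = 0.0091). Its adjusted p was 0.051 without day 3 replicate 2 and 0.056 without day 2 replicate 1.

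The calls of 4 other falls were lost when single libraries were left out. miR-463-5p had 265 and 173 normalized counts on day 3, against 604 and 401 on day 2 (log2 change −1.20, adjusted p = 0.022). Its adjusted p was 0.11 without day 3 replicate 2 and 0.14 without day 2 replicate 1. let-7d-3p, the minor arm of a let-7 hairpin, had 135 and 63 on day 3, against 188 and 202 on day 2 (log2 change −1.08, adjusted p = 0.039). Without day 3 replicate 2 the change was −0.53 (adjusted p = 0.20), and without day 2 replicates 1 or 2 the adjusted p was 0.10 and 0.14. miR-667-3p had 265 and 468 on day 3, against 704 and 645 on day 2 (log2 change −0.94, adjusted p = 0.048). It changed by −0.53 without day 3 replicate 1 (adjusted p = 0.33), and the adjusted p was 0.16 and 0.12 without day 2 replicates 1 or 2. miR-702-3p had 221 and 237 on day 3, against 396 and 502 on day 2 (log2 change −0.96, adjusted p = 0.037), and its adjusted p was 0.057 to 0.18 with any 1 of the 4 libraries left out.

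In the miR-290-295 cluster, the hallmark of naive pluripotent mouse cells, 2 of 14 tested miRNAs were called lower, against 9.01% of all tested miRNAs, and none was called higher. The median log2 change was −0.31, and 3 of the 14 changes were positive. Neither call was on the most abundant arms. miR-293-3p had 1357 and 1735 normalized counts on day 3, against 2950 and 2739 on day 2 (log2 change −0.89, SE 0.18, adjusted p = 0.0056). miR-295-5p had 236 and 227 on day 3, against 443 and 436 on day 2 (log2 change −0.93, SE 0.22, adjusted p = 0.012). Its adjusted p was 0.057 and 0.053 without day 2 replicates 1 and 2. The most abundant member, miR-295-3p, had 17973 and 21396 on day 3, against 24556 and 22086 on day 2. Both day 3 values were lower, but the change was not called (log2 change −0.25, SE 0.18, adjusted p = 0.39). miR-292-5p had 19729 and 18057 on day 3, against 25054 and 22634 on day 2 (log2 change −0.34, SE 0.16, adjusted p = 0.20).

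The arms of miR-293 changed in opposite directions and were near each other on day 3. The 5p arm had 1236 and 1685 normalized counts on day 3, against 882 and 910 on day 2, while the 3p arm went the other way. The log2 ratio of 5p to 3p was −0.13 and −0.04 on day 3, against −1.74 and −1.59 on day 2, a difference of 1.58 (SE 0.23, adjusted p = 0.0013) that held without each library. In the 6 libraries of days 0 to 1 the 5p arm lay between 3284 and 4339, above its values on both later days. The 3p arm lay between 1922 and 2763 in those libraries. Its day 3 values were below that range, and of its day 2 values 2950 was above it and 2739 within it. Of 68 hairpins 1 ratio (1.47%) was higher on day 3 and 2 (2.94%) were lower. The lower ones were miR-363 (difference −1.23, adjusted p = 0.0092) and miR-431 (difference −1.33, adjusted p = 0.014). The minor arm miR-363-5p stayed near or under the floor, with 0 and 32 on day 3, against 17 and 28 on day 2. The minor arm miR-431-3p had 87 and 96 on day 3, against 0 and 17 on day 2. That arm passed the filter through day 3 alone, so the fall of the miR-431 ratio depends in part on the filter. Neither ratio had both arms above the floor in all 4 libraries. The miR-363 call was lost without day 2 replicate 2 (adjusted p = 0.051), and the miR-431 call without day 3 replicate 2 (adjusted p = 0.055) or day 2 replicate 1 (adjusted p = 0.12). The next ratios were those of miR-342 (adjusted p = 0.11) and miR-106b (adjusted p = 0.12). The miR-342 ratio was called without day 3 replicate 2 (adjusted p = 0.00022), and the miR-106b ratio without day 2 replicate 1 (adjusted p = 0.023).

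The let-7 list, with miR-98, summed to 2818 and 2635 normalized counts on day 3, against 3314 and 3753 on day 2. let-7f-5p, the most abundant of them, had 1453 and 1345 on day 3, against 1754 and 2105 on day 2, and the groups did not overlap (log2 change −0.46, SE 0.16, adjusted p = 0.082). Of 9 tested members 1 was called lower, against 9.01% of all tested miRNAs, and none higher, with a median log2 change of −0.33. The Sfmbt2 cluster is the imprinted rodent cluster of the miR-466, miR-467 and miR-669 families. In it 1 of 29 tested was called lower, against 9.01% of all tested miRNAs, and none higher, with a median of −0.12. Its most abundant member, miR-466a-3p, had 1544 and 1477 on day 3, against 1714 and 1955 on day 2. Members of this cluster are near copies of each other and their reads may be shared between entries. The same holds for miR-465a-3p, miR-465b-3p and miR-465c-3p, which have 1 mature sequence and were all listed at 3007 and 2748 on day 3, against 5070 and 4987 on day 2. These 3 calls are 1 measurement (log2 change −0.81, SE 0.17, adjusted p = 0.0056), and the 32 lower calls held 30 distinct profiles.

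**Figure D3:**
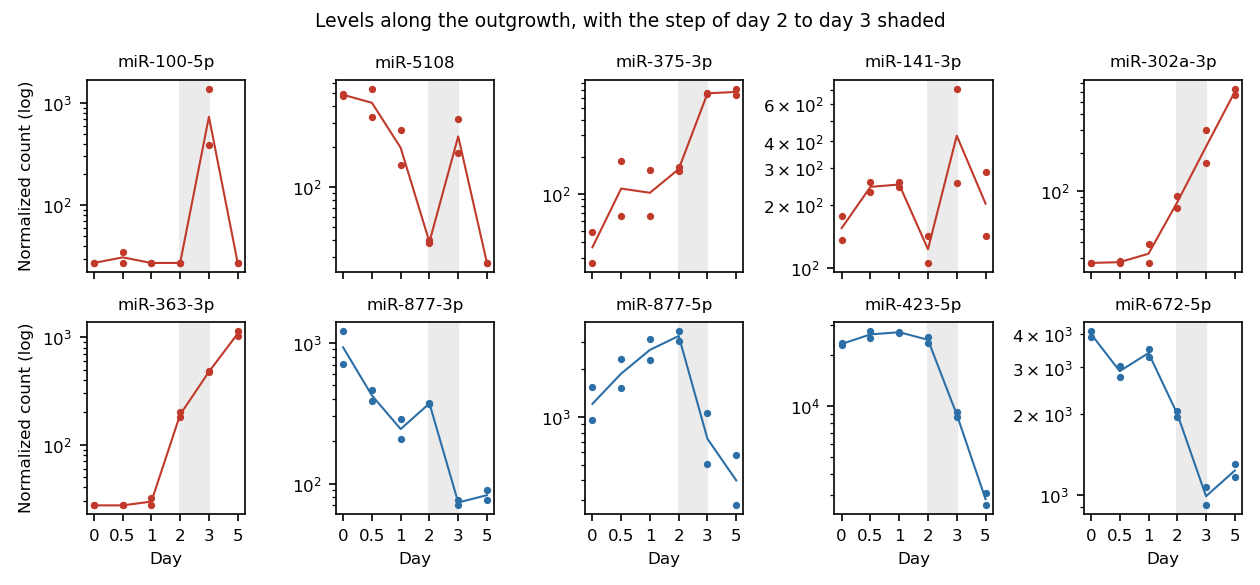
Normalized counts on a log axis of 6 called rises (red) and 4 called falls (blue) in ICM and outgrowths along the days of culture, with each library as a point, the line through the mean of the log values, values under 27.2 drawn at 27.2 and the step of day 2 to day 3 shaded. miR-302a-3p and miR-363-3p climb through day 5, miR-423-5p stays between 22911 and 27731 until day 2 before it falls, and miR-100-5p is highest in both day 3 libraries.

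Summed by seed, 238 families were tested, of which 20 (8.4%) were higher and 25 (10.5%) lower on day 3. Only 7 called families had more than 1 tested member, among 31 such families, so most family calls repeat a single miRNA. The 5 families with the lowest p were those of miR-423-5p, miR-877-3p, miR-5108, miR-672-5p and miR-431-3p, each carried by 1 tested member. miR-431-3p itself had 87 and 96 normalized counts on day 3, against 0 and 17 on day 2. It passed the filter through day 3 alone, so the direction of its family call was fixed. The UCAAGUA family of miR-26a-5p and miR-26b-5p summed to 19753 and 12800 on day 3, against 7310 and 7832 on day 2 (log2 change 1.07, SE 0.21, adjusted p = 0.0051), and the call held without each library. miR-26b-5p alone had 707 and 560 on day 3, against 228 and 300 on day 2 (adjusted p = 0.41). The AGCAGCA family of miR-16-5p, miR-322-5p, miR-15b-5p and miR-15a-5p summed to 13898 and 9924 on day 3, against 7400 and 7253 on day 2 (log2 change 0.68, SE 0.16, adjusted p = 0.016). That call was lost without day 3 replicate 1 (adjusted p = 0.097) and without day 2 replicates 1 (adjusted p = 0.066) or 2 (adjusted p = 0.073). The AUUGCAC family of miR-92a-3p, miR-92b-3p, miR-25-3p and miR-363-3p summed to 195112 and 146960 on day 3, against 186234 and 192033 on day 2 (adjusted p = 0.44).

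The 10 most abundant miRNAs made up 59.8% and 55.7% of the counts on day 3, against 55.0% and 57.6% on day 2, and none of them was called. miR-92a-3p alone held 17.0% and 19.5% on day 3, against 19.5% and 18.7% on day 2. miR-182-5p, of a cluster expressed in sensory epithelia and pluripotent cells, had 146380 and 82297 normalized counts on day 3, against 92428 and 117500 on day 2. miR-22-3p was the steadiest, with 19488 and 19005 on day 3, against 19026 and 17758 on day 2. miR-351-5p had 34801 and 20260 on day 3, against 33718 and 39238 on day 2. miR-5099 had 26598 and 18086 on day 3, against 9837 and 13328 on day 2, with no overlap (log2 change 0.94, SE 0.36, adjusted p = 0.10). miR-92b-3p had 26882 and 14060 on day 3, against 33266 and 36603 on day 2. Its groups did not overlap either, but its SE was 1.54, and it was listed at 0 in 1 fresh ICM library and at 4651 in the other.

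The day 3 replicates differed from each other more than the day 2 replicates did. Over the 355 tested miRNAs, 72 (20.3%) differed by over 1 log2 unit between the day 3 libraries, against 29 (8.17%) between the day 2 libraries. The replicate correlation of log2 values was 0.94 on day 3, against 0.97 on day 2. The difference exceeded sampling noise on both days. The chi-square per miRNA of the estimated reads was 54.6 over 408 miRNAs on day 3 and 12.4 over 378 on day 2. This value grows with the number of reads and rests most on abundant miRNAs, so it does not compare the spread of the days directly. Day 3 replicate 1 lay over 1 log2 unit above the day 2 mean for 55 miRNAs and below it for 45. Day 3 replicate 2 did so for 31 and 25. Both replicates did so together for 18 above and 13 below, of which 15 and 13 were called, and 1 miRNA, miR-7220-3p, went opposite ways.

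**Figure D4:**
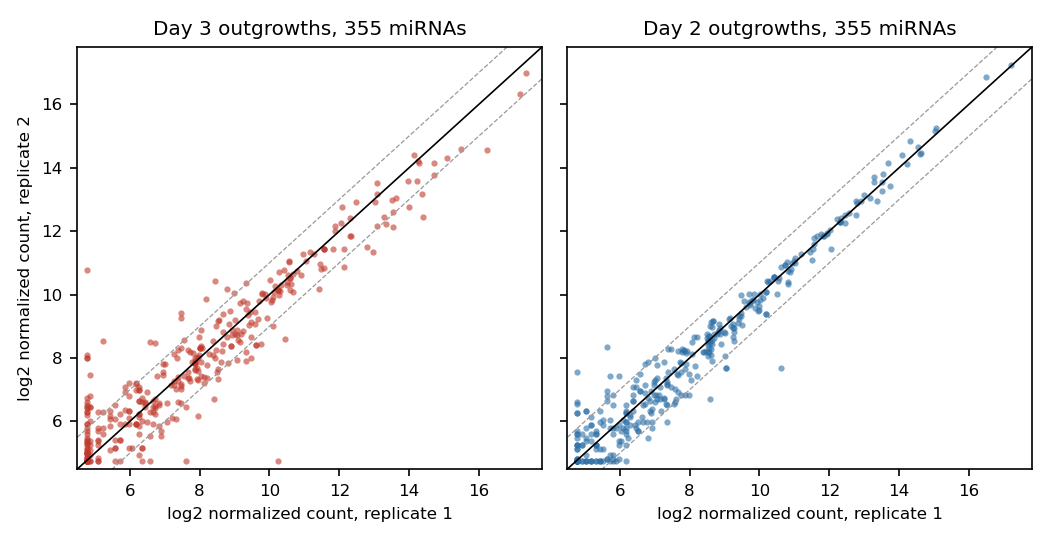
Replicate 2 against replicate 1 as log2 normalized counts, for the day 3 libraries (left) and the day 2 libraries (right), with 1 point for each of the 355 tested miRNAs, the line of equality, and dashed lines at 1 log2 unit. The left cloud is wider, with 72 points outside the dashed lines, against 29 in the right one.

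miR-2861 had the largest gap, listed at 0 in day 3 replicate 1 and at 1766 in replicate 2, against 4248 and 2795 normalized counts on day 2. Without day 3 replicate 2 it would be called lower, with an adjusted p of 0.0046. With both day 3 libraries the adjusted p was 0.12. miR-7220-3p had the reverse pattern, 1212 and 0 on day 3, against 17 and 188 on day 2, and without day 3 replicate 2 its adjusted p was 0.031. miR-191-5p, a widely expressed miRNA, had 76399 and 23833 on day 3, against 17285 and 21745 on day 2. Replicate 1 lay 1.98 log2 units above the day 2 mean and replicate 2 lay 0.30 above. Its log2 change of 1.14 was not called (adjusted p = 0.20), and it was called without day 3 replicate 2 (adjusted p = 0.033). miR-183-5p behaved like it, with 21513 and 5608 on day 3, against 5159 and 5507 on day 2 (adjusted p = 0.28), and was called without day 3 replicate 2 (adjusted p = 0.036). The remaining wide gaps were in miR-8109, with 38 and 370 on day 3, miR-199a-3p with 24 and 256, miR-409-5p with 197 and 27, miR-494-3p with 29 and 175, and miR-6239 with 96 and 367. miR-5112 had a gap of −1.97 log2 units, replicate 1 minus replicate 2. Of these, miR-8109, miR-199a-3p and miR-494-3p were called lower without day 3 replicate 2, with adjusted p of 0.027, 0.041 and 0.021. Without day 3 replicate 2, miR-27b-3p, the most abundant of the miR-23/miR-27/miR-24 list, was called higher (adjusted p = 0.025). With both day 3 libraries it had 4484 and 2779, against 2061 and 2025 on day 2 (log2 change 0.79, adjusted p = 0.070).

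Markers of other cell types differed between the day 3 replicates as well. The 17 fibroblast and smooth muscle markers, of which 7 were tested and none was called, summed to 25183 and 12102 normalized counts on day 3, against 16258 and 20951 on day 2. Most of that sum was miR-10b-5p, a Hox cluster miRNA, at 21292 and 9145 on day 3, against 13130 and 18305 on day 2. The 8 blood markers summed to 1953 and 1473 on day 3, against 1437 and 1436 on day 2. The 12 neural markers summed to 501 and 602 on day 3, against 568 and 411 on day 2, and striated muscle markers to 0 and 14, against 0 and 31. The part of these cells in the changes was not tested. Over the 179 miRNAs at the floor in all 18 libraries, the gap between day 3 replicates had a correlation of −0.76 with the day 5 gap, and of 0.74, −0.60 and −0.11 with the gaps of the ESC P4, P2 and P15 libraries. With the gaps of days 0, 0.5, 1 and 2 it was −0.21, −0.15, −0.28 and −0.19. These are descriptions across miRNAs that share libraries, and the sign depends on which replicate carries which number. The ESC codes are those of the sample descriptions and disagree with the passage numbers in the sample titles.

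The called miRNAs also differed in base composition. The 24 higher miRNAs with a RefSeq sequence had a median GC content of 40.9%, the 25 lower ones 57.7%, and all 288 tested ones with a sequence 47.8%. GC content was at least 50% in 4 of the 24 higher and in 18 of the 25 lower ones. Across the 288 miRNAs, the change and GC content had a Pearson correlation of −0.25, given as a description. With the GC trend of each library removed, 12 were called higher and 20 lower, against 22 and 24 in the same 288 without that step. Of the 20 largest changes, the removal ended the calls of let-7d-3p (adjusted p = 0.054), miR-380-3p (adjusted p = 0.065), miR-667-3p (adjusted p = 0.14) and miR-702-3p (adjusted p = 0.22). The part of base composition in the changes was not tested beyond this.

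**Figure D5:**
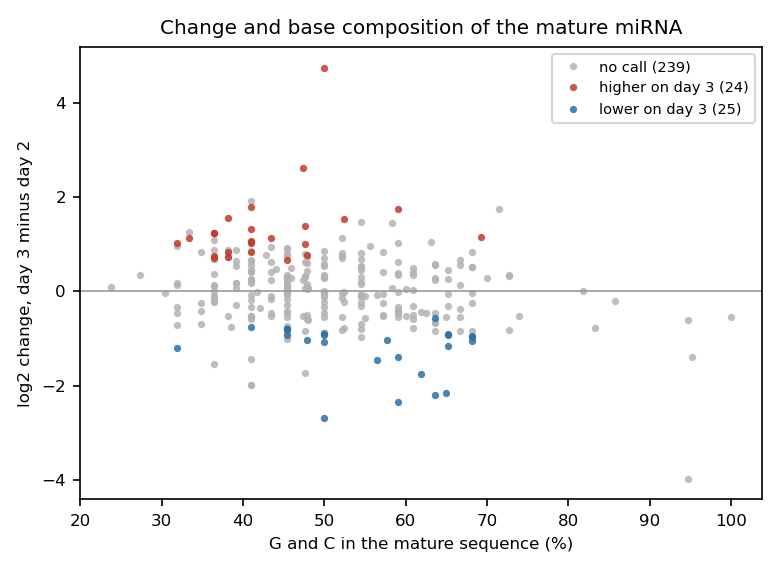
The log2 change, day 3 minus day 2, against the percentage of G and C in the mature sequence, for the 288 tested miRNAs with a RefSeq sequence (1 point each; red higher, blue lower, grey no call). The red points lie mostly left of 50% and the blue points mostly at 50% or more.

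The remaining lists are given by their counts, beside 7.89% called higher and 9.01% called lower among all tested miRNAs. None of the 9 tested miR-30 miRNAs was called, and miR-30d-5p had 8688 and 11693 normalized counts on day 3, against 11829 and 14304 on day 2. In the miR-183/miR-96/miR-182 list none of 5 was called, although the median log2 change was 0.87. In the miR-23/miR-27/miR-24 list, miR-23a-3p and miR-27a-3p of the same hairpin cluster were called higher among 6. Both, and miR-24-3p, passed the filter through day 3 alone, so the direction of these calls was fixed. miR-27a-3p had 101 and 61 on day 3, against 20 and 0 on day 2. miR-23a-3p had 63 and 81 on day 3, against 23 and 0 on day 2, and its call was lost whichever library was left out, with adjusted p of 0.068 to 0.12. In the list of the X-linked miR-322 cluster 1 of 6 was called, miR-322-5p, with 1900 and 1573 on day 3, against 1031 and 913 on day 2. Its adjusted p was 0.086 without day 3 replicate 1 and 0.085 without day 2 replicate 2. Among the miR-15 and miR-16 relatives 1 of 3 was called higher (median 0.66), in the miR-26 list 1 of 3 (median 1.06) and in the miR-148/miR-152 list 1 of 5 (median 0.49), and none was lower. No call was made among 5 miR-130/miR-301, 3 miR-181 and 2 miR-34/miR-449 miRNAs, and no miR-29 miRNA reached the filter. miR-130a-3p had 1482 and 1556 on day 3, against 1159 and 1080 on day 2 (adjusted p = 0.14), while miR-181c-5p and miR-34c-5p overlapped between the days.

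Among the 60 tested entries numbered from 1900 3 were called higher and 8 lower, against 7.89% and 9.01% of all tested miRNAs. Their median log2 change was −0.27. The lower ones were mostly at low level: miR-6982-3p had 0 and 25 normalized counts on day 3, against 119 and 77 on day 2, and miR-1949 had 0 and 34 on day 3, against 159 and 94 on day 2. Of the 8 lower ones, miR-6982-3p, miR-6923-3p, miR-7046-3p and miR-7005-5p passed the filter through day 2 alone, so the direction of their calls was fixed. Among entries under the floor on one day, 22 were listed at 0 in both day 2 libraries and above 0 in both day 3 libraries, and 10 the other way round. The lowest listed value was 24 and 9 in day 3 replicates 1 and 2, against 17 in both day 2 libraries. Some of the 22, such as miR-8106 with 29 and 9, had a replicate 2 value too low to be listed on day 2. The counts in the opposite directions therefore cannot be compared directly. miR-24-3p was one of the 22, with 120 and 47 on day 3 (adjusted p = 0.070), as was miR-184-3p, with 96 and 22. At these depths a value of 0 means fewer than 5 reads.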

How the data were processed

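Small RNA (PureLink miRNA kit, TruSeq Small RNA libraries) was sequenced in all samples, per the labels' protocols. The deposited values are scores: normalized counts that the authors rounded to whole numbers. Per the submitters' processing notes, cutadapt, DESeq2 1.30.0 and the mm10 genome were used. What aligned and counted the reads, and on which annotation, is not given in the sources used here.

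Libraries were grouped by their labels. Reads were estimated from the spacing of values below 1000 (tolerance 0.5). Values were raised to the floor of 27.2, log2 transformed and fitted for 9 groups of 2 libraries by limma 3.58.1 (R 4.3.3, options trend and robust, 9 residual degrees of freedom). The contrast was day 3 minus day 2, two-sided, with Benjamini-Hochberg adjustment over all features tested. Seed families were summed and arm ratios fitted in the same way, the ratios without the trend option. As rounded normalized values are not counts, no count test was run. The miRNA and arm ratio fits were tested on simulated data. Loci are from RefSeq and gene overlaps from GENCODE vM21.

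miRNAs were named by rule: where the 4 libraries averaged 100 or more, the 10 largest called rises and falls without overlap, the 10 most abundant and the 10 with the widest day 3 gap, then the most abundant of each list and the 5 families and 5 arm ratios with the lowest p. Others were chosen after their values were seen. Members, lists and tests were chosen with earlier results of these data known. Alternatives changed the floor, filter, scaling, libraries, spread and pairing. No list was tested as a set.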

Additional observations from a re-analysis of the deposited data

How the results depend on the processing

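Of 60 called miRNAs in the comparison, none was called in the opposite direction under any alternative. On log2(value + 1) 34 of the 60 were called again, and with the GC trend removed 30 of the 49 tested there. The total number of calls, new ones included, was 38 on log2(value + 1) and 11 with days 0 to 3 alone. With the 4 libraries alone it was 0 (limma, 64 at an unadjusted p under 0.05). The total was 24 with array weights and, added after the data were seen, 32 with the GC trend removed. It lay between 35 and 67 with 1 library left out. The other alternatives gave 42 to 63. Among the 20 largest changes, rescaling to equal totals ended the calls of miR-342-5p (adjusted p = 0.073), miR-667-3p (0.16) and miR-702-3p (0.091). Among more abundant miRNAs it added calls of miR-5099 (0.048) and miR-27b-3p (0.018). Array weights ended the calls of miR-126a-5p (0.074), miR-141-3p (0.057), miR-380-3p (0.062), miR-3960 (0.081), miR-463-5p (0.057), let-7d-3p (0.074), miR-667-3p (0.16) and miR-702-3p (0.087). On log2(value + 1) the calls of let-7d-3p (0.29), miR-342-5p (0.19), miR-667-3p (0.15) and miR-702-3p (0.24) were lost as well.

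The number of called seed families was 45, and it was 23 on log2(value + 1), 27 with the strict filter, 10 with days 0 to 3, 0 with the 4 libraries (limma, 42 at an unadjusted p under 0.05), 15 with array weights, and 22 to 47 with 1 library left out. The number of called arm ratios was 3, and it was 1 on log2(value + 1), with the floor doubled or with the strict filter, 0 with days 0 to 3 or the 4 libraries (limma, 10 and 7 at an unadjusted p under 0.05), and 3 to 4 with 1 library left out. Why these counts differ was not tested, beyond the fewer degrees of freedom of the smaller fits.

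Whether the replicate numbers of day 2 and day 3 pair the libraries is not known. The day 2 and day 3 gaps correlated at −0.26 over 355 miRNAs, which cannot decide it, as the sign depends on the numbering. A replicate block gave 56 called miRNAs, 39 families and 5 arm ratios, and the crossed pairing, chosen after seeing the data, gave 63 called miRNAs. At 201031 to 370150 reads per library, miRNAs near 27.2 normalized counts were measured too coarsely to show small changes.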
